A study of Mus musculus with 8 samples.

Results

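The 6 miRNA hairpins described here, miR-155, miR-146a, miR-146b, miR-132, miR-212 and miR-31, were grouped as candidates for induction by serum. Of these, miR-155 alone passed the test after serum. They were followed through arrest and re-entry of the cell cycle in NIH-3T3, an established line of mouse fibroblasts. They were chosen by name, and a read was counted for a mature arm when its first 20 bases were identical to that arm. Of their 12 mature arms, 10 had at least 1 read and 7 passed the filter for the test, out of 573 mature miRNAs with a read and 290 tested in the whole series. The 6 hairpins together gave between 0.423% and 0.627% of the miRNA reads of a library.

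Small RNAs were sequenced from 8 libraries, 1 per condition. In the serum experiment the cells, passaged in 10% DCS, were held without serum for 48 h, then received medium with 20% serum. Cells were taken at 0 h (labelled G0), 12 h (G1), 16 h (S), 20 h (G2/M) and 24 h (G1). For contact inhibition, cells were plated at 12% confluency and collected on day 0, called asynchronous, and on days 3 and 5, both called G0. All libraries come from the same line and the labels name no genetic change or drug, and no condition has a replicate. In such bulk samples, fewer expressing cells and less RNA per cell cannot be told apart.

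A miRNA is cut from 1 arm or both arms of a hairpin, and bases 2 to 8 of the mature strand, the seed, set most of its pairing with target mRNAs. miR-155, made from the non-coding Mir155hg transcript, is known for its induction through AP-1 and NF-kB in activated macrophages and B cells. miR-146a and miR-146b are known as feedback inhibitors that target the signalling proteins Traf6 and Irak1. miR-132 and miR-212 come from 1 primary transcript that the transcription factor CREB induces, best known in neurons, and miR-31 is best known for its loss or gain in tumours.

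The mature arms that passed the filter are shown because their seeds define which of them can share targets. Sequences are RefSeq's (build GRCm38.p6), written 5′ to 3′ with the seed in capitals.
miR-155-5p: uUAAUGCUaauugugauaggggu
miR-146a-5p: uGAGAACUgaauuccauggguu
miR-146b-5p: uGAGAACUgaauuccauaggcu
miR-132-3p: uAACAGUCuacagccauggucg
miR-212-3p: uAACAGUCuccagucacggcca
miR-31-5p: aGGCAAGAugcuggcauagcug
miR-31-3p: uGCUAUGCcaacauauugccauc
miR-146a-5p and miR-146b-5p share a seed and differ by G18A and U21C, counted from the 5′ end with the miR-146a base first. miR-132-3p and miR-212-3p share a seed and differ by A10C, C14U, U17C, U20C and G22A, with the miR-132 base first. The first 20 bases of each of the 12 arms matched no other mature entry, so no read could be counted for both members of a pair.

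On GRCm38.p6 miR-155-5p lies at chr16:84714143-84714165 on the plus strand, in an exon of the lincRNA Mir155hg as GENCODE annotates it. miR-212-3p (chr11:75173443-75173464) and miR-132-3p (chr11:75173723-75173744) lie on the plus strand, their hairpins with 203 bases between them, in an intron of the non-coding gene 1700016P03Rik. miR-146b-5p (chr19:46342790-46342811, plus strand) lies in an intron of the protein-coding gene Mfsd13a. miR-146a-5p (chr11:43374435-43374456, minus strand) overlaps no other annotated gene. miR-31-5p (chr4:88910614-88910635, minus strand) lies in an exon of the lincRNA AL805899.1.

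Levels are given as TMM-scaled CPM: counts per 1000000 miRNA reads of a library, corrected by edgeR's trimmed mean of M values. The deposited files held 6121247 to 8512472 reads for the serum libraries and 707202 to 801593 for the contact libraries, of which 129752 to 846617 and 314510 to 435102 were miRNA reads. In the serum libraries a single 18-nt insert made up 48.7% to 75.6% of all reads. Fibroblast or mesenchymal marker miRNAs, of which 3 of 5 were counted, had reads in every library and summed to between 35680 and 287800 TMM-scaled CPM. The others, miR-143-3p and miR-145a-5p, had no entry in the mature miRNA reference and could not be counted. Some listed markers thus lacked an entry, so 0 reads of a marker in all libraries need not mean absence. The 0 h library stood apart in markers of other cells. It held 725 reads of 5 of 7 epithelial markers, led by miR-200c-3p (354 reads), against 0 to 13 reads of the list in each of the other 7 libraries. It also held 62 reads of the blood marker miR-142a-3p, which had 0 reads elsewhere, while the other 5 blood markers had 0 reads at 0 h. Inserts under 16 nt made up 1718702 of the 6121247 reads at 0 h, against 40125 to 73224 reads in the other serum libraries. Every comparison with 0 h below rests on this 1 library. The part of these other miRNAs and of the short inserts in the results was not tested.

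Ratios carry 95% exact intervals that cover the counting of reads only, since no condition has a replicate. The reads have no molecular identifiers, so copies of 1 molecule enter as separate reads and the intervals can be too narrow. The adjusted p-values come from edgeR's quasi-likelihood test over all 290 miRNAs with Benjamini-Hochberg adjustment, where the times after serum, and the 2 days of contact arrest, give the spread and the lone 0 h and day 0 libraries are assumed to vary alike. They measure only the spread between these libraries.

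miR-155-5p rose after serum, and it was the single tested arm of the 6 hairpins to pass the test. It stood at 47.1 TMM-scaled CPM at 0 h, 2496 at 12 h, 1699 at 16 h, 1470 at 20 h and 1814 at 24 h. All 4 libraries after serum lay far above the starved one. The read counts behind these levels were 14, 710, 1608, 293 and 277. Relative to 0 h the level was 53.0-fold higher at 12 h (95% interval 31.4 to 97.5), 36.1-fold at 16 h, 31.2-fold at 20 h (18.3 to 57.8) and 38.5-fold at 24 h. Among the miRNAs of a library miR-155-5p ranked between 42 and 57 after serum, against 206 of 257 at 0 h.

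The fitted log2 fold change of miR-155-5p between serum-released and starved cells was 5.30 (SE 1.11, adjusted p = 0.0165 by edgeR). By edgeR it was the single miRNA of the series called higher (0.345% of those tested). Another single miRNA, the Hox-cluster miR-10a-5p, was called lower (0.345%) at -4.37. DESeq2 called 6 of the 290 higher, miR-155-5p among them, and 2 lower. The median log2 fold change of all 290 was 0.20 with TMM, 0.17 with DESeq2 size factors and 0.04 with library totals, so that scaling moved the whole set by little beside 5.30. The call of miR-155-5p held in all 14 other settings, with fitted values of 4.13 to 12.02 and adjusted p between 3.09e-08 and 0.0394.

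**Figure D1:**
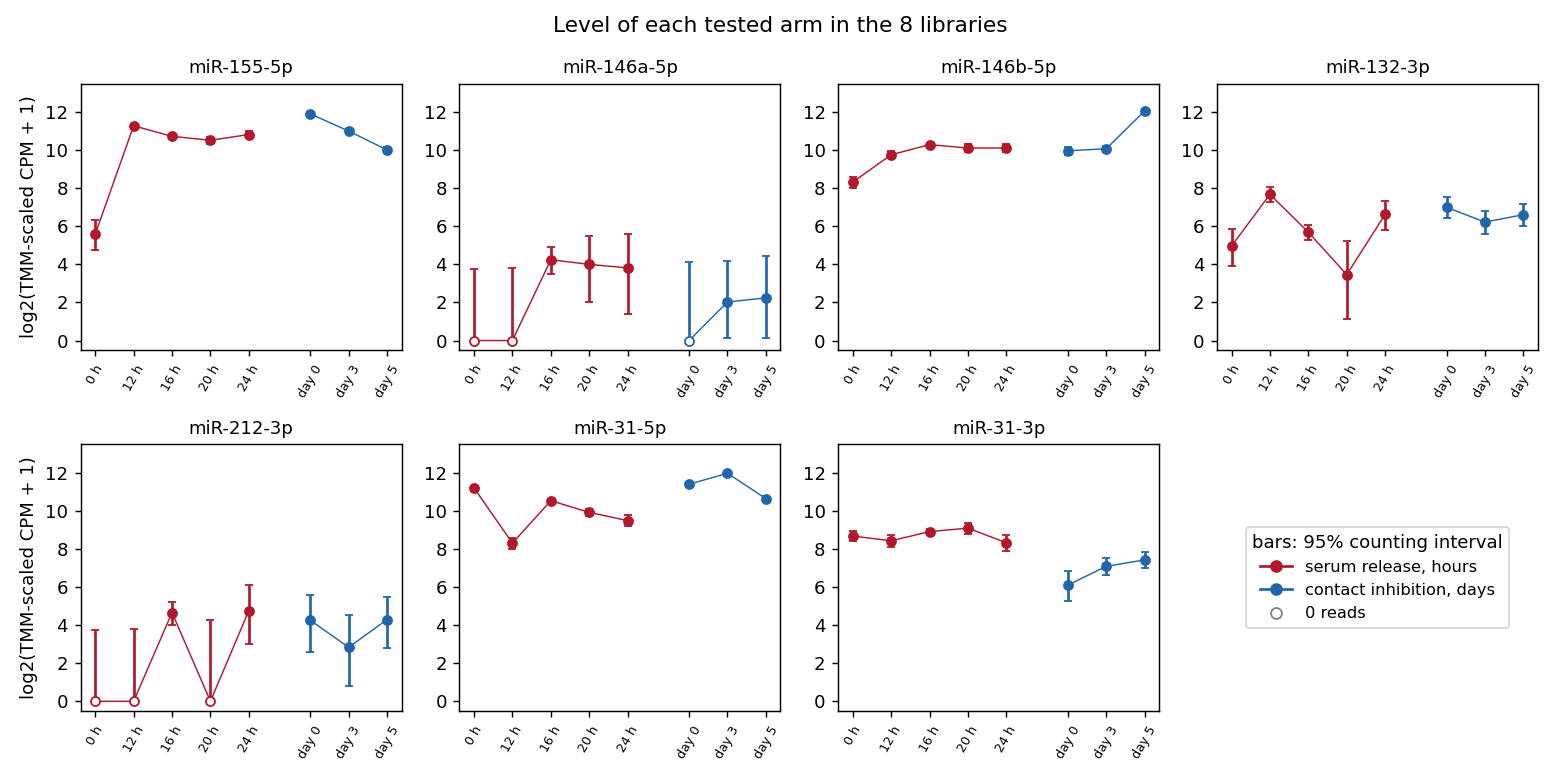
Level of each of the 7 tested arms in the 8 libraries, as log2(TMM-scaled CPM + 1) against hours after serum (red) and contact day (blue), with 95% counting intervals and open circles for 0 reads. miR-155-5p is lowest at 0 h (47.1 TMM-scaled CPM) and at 1470 or above at 12 to 24 h, and it is lower on each later contact day.

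The 14 reads of miR-155-5p at 0 h were all copies of 1 insert, whose last bases AA are not in the hairpin. That insert is shown beside the commonest insert of the 16 h library, which lies wholly in the hairpin and had 607 reads there.
miR-155-5p at 0 h: uUAAUGCUaauugugauagggaa
miR-155-5p at 16 h: uUAAUGCUaauugugauagggguu
Reads that matched the hairpin over their whole length numbered 0 at 0 h, 690 at 12 h, 1175 at 16 h, 189 at 20 h and 191 at 24 h. With a floor of 3 reads put in place of the 0 at 0 h, and the same scaling, the ratio was 240.4 at 12 h and 94.0 at 20 h. These values depend on that floor, and no interval was computed for them. With each distinct insert counted once, a choice made after seeing the data, miR-155-5p had 1 insert at 0 h, 13 at 12 h, 71 at 16 h, 20 at 20 h and 17 at 24 h. All miRNAs together had 1673, 1121, 6356, 2369 and 1808 distinct inserts at these times. In distinct inserts the fitted log2 fold change of miR-155-5p was 4.13 (SE 0.955, adjusted p = 0.00595 by edgeR).

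Among the times after serum the differences in miR-155-5p were small beside the rise from 0 h, and their size depended on the scaling. Their intervals exclude 1 but treat copies of an insert as separate molecules. The level at 16 h was 0.681 times that at 12 h (0.623 to 0.745), at 20 h 0.865 times that at 16 h (0.761 to 0.980), and at 24 h 1.23 times that at 20 h (1.04 to 1.46). The 2 libraries called G1, 24 h and 12 h, differed by a ratio of 0.727 (0.630 to 0.836). With library totals that ratio was 0.577, and with DESeq2 size factors 0.693. The ratio of 16 h to 12 h was 0.513 with library totals and 0.599 with DESeq2 size factors. With 1 library per time, no test of these steps over samples was possible.

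In the contact experiment miR-155-5p stood at 3848 TMM-scaled CPM on day 0, 2057 on day 3 and 1033 on day 5, from 849, 669 and 277 reads. Each later day was lower than the one before. The ratio to day 0 was 0.535 on day 3 (0.482 to 0.592) and 0.268 on day 5 (0.233 to 0.308). The fitted log2 fold change of contact-inhibited cells against day 0 was -1.32 (SE 0.798) and missed the test (adjusted p = 0.824 by edgeR). It was -0.63 in distinct inserts, which numbered 66, 59 and 36 on days 0, 3 and 5, and -1.97 without day 3. No miRNA of the series was called in this comparison (0% of 290) by edgeR, with 21 at an unadjusted p under 0.05, while DESeq2 called 7, none of them a member. The median of all tested miRNAs here was 0.10 with TMM, 0.12 with library totals and -0.27 with DESeq2 size factors.

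miR-155-5p stood lower in both arrested states, and the 2 arrest effects were compared in 1 model. The arrest effect, arrested minus cycling, was more negative for starvation than for contact by 3.98 on the log2 scale (difference -3.98, SE 1.29). This was the lowest unadjusted p of the 290 (0.00582), with an adjusted p of 0.791 by edgeR. No miRNA was called (0% of 290), 17 had an unadjusted p under 0.05, and DESeq2 called none. The median over all tested was -1.02. When whole inserts had to match the hairpin, the difference was -10.6 and passed (adjusted p = 0.0132), with 0 reads at 0 h behind it.

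The 3p arm, the strand usually degraded, made up 0.487% of miR-155 reads over all libraries (23 of them; 0.309% to 0.730%). It had 19 reads at 16 h, 2 on contact day 0 and 1 each on days 3 and 5, and 0 reads in the other 4 libraries, where 3 reads would equal 10.1 to 19.6 TMM-scaled CPM.

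miR-146b-5p was higher at every time after serum than at 0 h, without passing the test. It stood at 319.5 TMM-scaled CPM at 0 h, 868.5 at 12 h, 1255 at 16 h, 1108 at 20 h and 1113 at 24 h, from 95, 247, 1188, 221 and 170 reads. All 4 libraries after serum lay above the starved one. The ratio to 0 h ran from 2.72 at 12 h (2.14 to 3.48) to 3.93 at 16 h (3.19 to 4.89), and the intervals at 16, 20 and 24 h overlapped. By the fit the log2 fold change was 1.76 (SE 0.900, adjusted p = 0.544 by edgeR). In distinct inserts it was 0.81 (SE 0.591, adjusted p = 0.794 by edgeR), with 9, 51, 14 and 16 inserts at 12, 16, 20 and 24 h against 8 at 0 h. As a share of all distinct miRNA inserts of a library, miR-146b-5p was higher at each of these times than at 0 h.

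By ratios alone, a miRNA was counted when all 4 libraries after serum were at least 2-fold from 0 h on the same side with intervals that exclude 1. miR-155-5p and miR-146b-5p were among the 11 of 186 miRNAs counted higher (5.91%), and no arm of the 6 hairpins was among the 10 counted lower (5.38%). Without the 16 h library, 22 of 154 were higher and 18 lower, and miR-31-5p was then among the lower.

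In contact arrest miR-146b-5p stood at 1002 TMM-scaled CPM on day 0, 1082 on day 3 and 4279 on day 5, from 221, 352 and 1148 reads. Day 5 alone stood out. Its ratio to day 0 was 4.27 (3.70 to 4.96), while that of day 3 was 1.08 (0.911 to 1.28), and 0.866 with DESeq2 size factors. Over both days the fitted log2 fold change was 1.42 (SE 0.925, adjusted p = 0.824 by edgeR), and 0.30 in distinct inserts, which numbered 23, 23 and 40. Without day 5 it was 0.10, and without day 3 it was 2.02.

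miR-146a-5p was rare beside miR-146b-5p. It had 0 reads at 0 h and 12 h, 17 at 16 h, 3 at 20 h and 2 at 24 h, and 0, 1 and 1 on contact days 0, 3 and 5. Its share of the reads of both hairpins was 1.40% at 16 h (0.818% to 2.23%), 1.33% at 20 h and 1.16% at 24 h, and 0.653% over all libraries (24 reads against 3654). Without the 16 h library that share was 0.284%. At 0 h the interval of the share reaches 3.81%, so a difference in share after serum was not detectable at this depth. With 3 reads taken as the floor at 0 h, the level at 16 h was 1.78-fold that at 0 h. The exact interval of the ratio, with 0 reads at 0 h, starts lower, at 1.30. The fitted value rests on 0 reads at 0 h (adjusted p = 0.583 by edgeR). Among reads that covered both bases by which the relatives differ, 1 read, at 16 h, carried one base of each. The miR-146a 3p arm had 0 reads in all libraries, and the miR-146b 3p arm had 12, of which 9 were copies of 1 insert at 16 h.

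The miR-146b-5p reads differed in their 3′ ends between libraries. The annotated 22 bases were the whole insert in 6.07% of reads, and the commonest insert over all libraries, 50.8%, was 24 nt long. It is shown beside the second commonest, which ends in a G that the hairpin does not hold.
miR-146b-5p, 1850 reads: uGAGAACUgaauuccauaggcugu
miR-146b-5p, 556 reads: uGAGAACUgaauuccauaggcugg
Such G ends made up 38.5% of miR-146b-5p reads at 12 h, 28.1% at 16 h, 25.8% at 20 h and 25.9% at 24 h, against 6.32% at 0 h. They made up 1.81%, 1.42% and 1.05% on contact days 0, 3 and 5. Over all miRNA reads, G ends made up 0.147% to 0.338% of a library, and the ranges of the 2 experiments overlapped. For miR-146b-5p every library after serum was thus above every contact library, and the source of these ends was not tested.

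**Figure D2:**
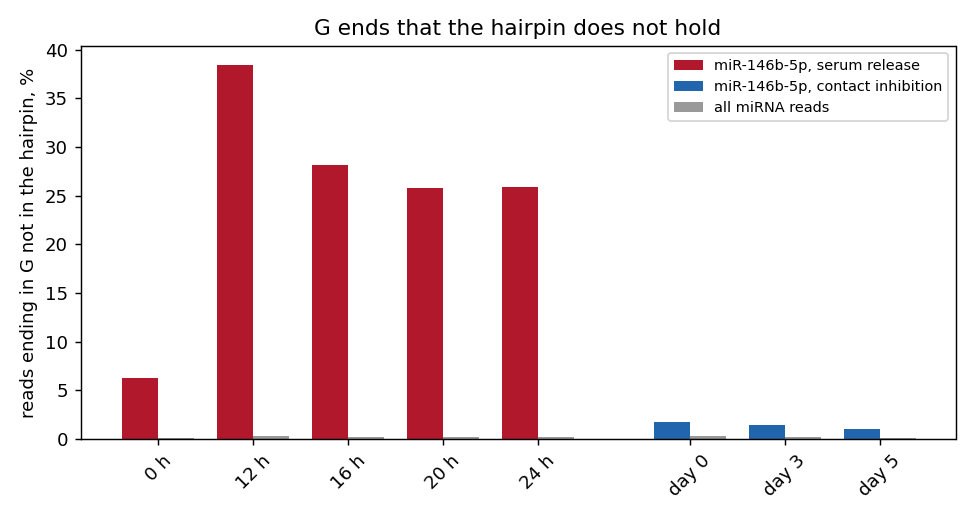
Share of miR-146b-5p reads (red and blue) and of all miRNA reads (grey) that end in G bases absent from the hairpin, in percent, by hours after serum and contact day. The 4 libraries after serum lie between 25.8% and 38.5% for miR-146b-5p, the contact libraries at 1.81% or below, and all miRNA reads at 0.338% or below.

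miR-132-3p and miR-212-3p, products of 1 transcript, gave few reads, and neither changed by the test. miR-132-3p had 9 reads at 0 h, 58 at 12 h, 48 at 16 h, 2 at 20 h and 15 at 24 h, which scaled to 30.3, 203.9, 50.7, 10.0 and 98.2 TMM-scaled CPM. The 20 h library lay below 0 h and the other 3 above it. The ratio to 0 h was 6.74 at 12 h (3.32 to 15.5) and 3.24 at 24 h (1.33 to 8.41), with intervals that include 1 at 16 and 20 h. All 15 reads at 24 h carry a base that is not in the hairpin, so none counts when whole inserts must match, whereas the 58 at 12 h and the 9 at 0 h all do. Over the 4 times the fitted log2 fold change was 1.57 (SE 2.12, adjusted p = 0.870 by edgeR). It was 0.76 without the 12 h library and 0.89 in distinct inserts.

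The 58 reads of miR-132-3p at 12 h were copies of 1 insert. So were the 9 at 0 h, the 2 at 20 h and the 15 at 24 h, while the 48 at 16 h fell on 9 inserts. In the contact libraries 28, 24 and 26 reads fell on 7, 7 and 6 inserts. Among all miRNAs with 10 to 60 reads in a library, 47.7% had a single insert at 0 h, 70.2% at 12 h, 3.03% at 16 h, 16.0% at 20 h and 20.5% at 24 h. In the contact libraries 1.08% to 2.41% did, so that the 16 h library lay near them. The counting intervals treat such copies as separate molecules.

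**Figure D3:**
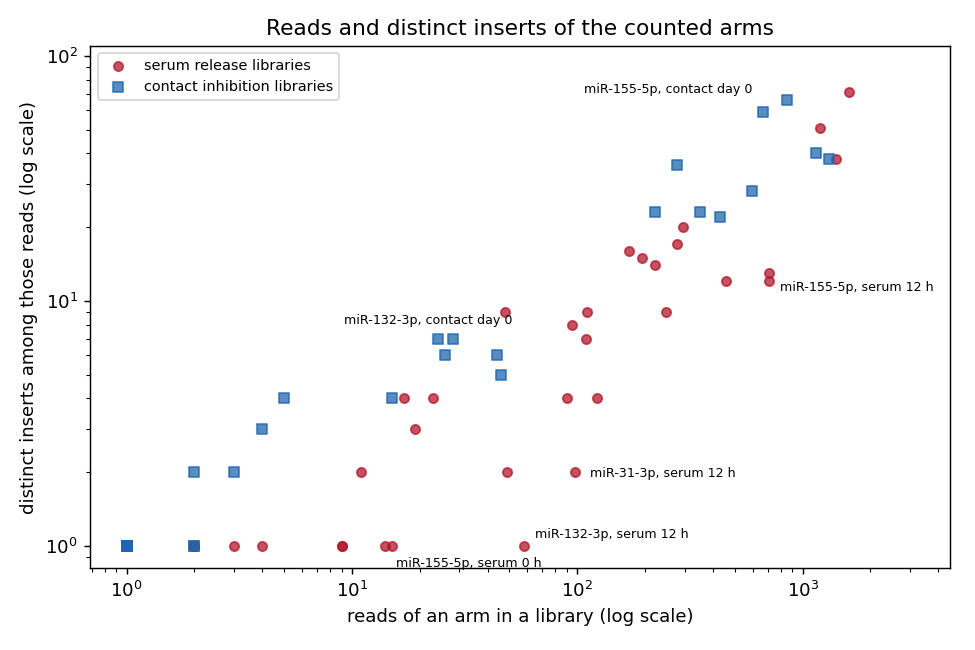
Distinct inserts against reads of each counted arm in each library (both axes on a log scale), for serum libraries (red circles) and contact libraries (blue squares). miR-132-3p at 12 h has 58 reads of 1 insert, while on contact day 0 its 28 reads fall on 7.

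In contact arrest miR-132-3p stood at 126.9 TMM-scaled CPM on day 0, 73.8 on day 3 and 96.9 on day 5. The intervals of both ratios to day 0 include 1, and the fitted log2 fold change was -0.57 (SE 2.02, adjusted p = 0.992 by edgeR). The 5p arm of miR-132 had 0 reads by its annotated start, and 4 reads in all began 1 base later.

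miR-212 gave 55 reads over both arms, against 210 for miR-132. Its 3p arm had 0 reads at 0, 12 and 20 h, 23 at 16 h and 4 at 24 h, and 4, 2 and 5 on contact days 0, 3 and 5. At 20 h, 3 reads began at the annotated start of this arm but were shorter than 20 bases, so they were not counted. The 5p arm of miR-212 had 11 reads at 16 h, 0 in the other serum libraries, and 2, 3 and 1 on those contact days. The 3p level at 16 h was 2.41-fold that at 0 h by the floor of 3 reads, and the exact interval of the ratio starts lower, at 1.81. The fit gave an adjusted p of 0.587 by edgeR. The miR-212 share of the reads of both hairpins was 17.65% on contact day 0, 17.2% on day 3 and 18.8% on day 5. It was thus level over the contact days, with wide intervals (6.76% to 34.5% on day 0). In the serum libraries it was 0% at 0, 12 and 20 h, 41.5% at 16 h (30.7% to 52.9%) and 21.1% at 24 h (6.05% to 45.6%). The 0% at 20 h rests on 2 reads of miR-132 and leaves out the 3 shorter reads of miR-212-3p. At 12 h, with 58 reads of miR-132 and none of miR-212, the interval reaches 6.16%, below the interval at 16 h. Those 58 reads were copies of 1 insert, and 13 of the miR-212-3p reads at 16 h were copies of another. The intervals treat copies as separate molecules, so the difference in share cannot be judged from them. Across the 8 libraries the levels of the 3p arms had a Pearson r of 0.41, over points that share libraries and low counts.

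Of the 23 miR-212-3p reads at 16 h, none lay wholly in the hairpin, and 13 were 1 insert of 28 nt with 6 U bases past the annotated end. It is shown beside the insert most frequent on contact day 0.
miR-212-3p at 16 h, 13 reads: uAACAGUCuccagucacggccauuuuuu
miR-212-3p on contact day 0, 2 reads: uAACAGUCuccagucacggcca
With whole inserts required, the miR-212 share of both hairpins over all libraries was 14.0%, in place of 20.8%.

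Neither arm of miR-31 passed the test after serum. miR-31-5p stood at 2378 TMM-scaled CPM at 0 h, 316.4 at 12 h, 1489 at 16 h, 973.0 at 20 h and 720.2 at 24 h, from 707, 90, 1409, 194 and 110 reads. Every library after serum lay below the starved one. The ratio to 0 h was 0.133 at 12 h (0.106 to 0.166), 0.626 at 16 h (0.572 to 0.686), 0.409 at 20 h and 0.303 at 24 h. The fitted log2 fold change was -1.44 (SE 0.777) and did not pass (adjusted p = 0.544 by edgeR). In distinct inserts it was -0.23 (SE 0.544), from 4, 38, 15 and 9 inserts at 12, 16, 20 and 24 h against 12 at 0 h. As a share of all distinct miRNA inserts of a library, miR-31-5p was lower at each of these times than at 0 h.

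miR-31-5p stood at 2711 TMM-scaled CPM on contact day 0, 4041 on day 3 and 1607 on day 5. It was thus highest on day 3 and lowest on day 5. The ratio to day 0 was 1.49 on day 3 (1.35 to 1.65) and 0.593 on day 5 (0.523 to 0.672), and the fitted log2 fold change of 0.06 (SE 0.931) changed sign with the scaling.

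miR-31-3p lay between 320.8 and 546.7 TMM-scaled CPM over the 5 serum libraries, from 122, 98, 457, 109 and 49 reads. The level at 20 h was 1.33 times that at 0 h (1.02 to 1.74), but 1.15 times with library totals and 1.16 with DESeq2 size factors. The intervals at 12, 16 and 24 h included 1, and the level at 24 h was 0.587 times that at 20 h (0.410 to 0.829). Its fitted log2 fold change after serum was 0.04 (SE 0.917, adjusted p = 0.999 by edgeR). In the contact libraries it stood lower, at 68.0 on day 0, 135.3 on day 3 and 171.5 on day 5. The ratio to day 0 was 1.99 on day 3 (1.09 to 3.85) and 2.52 on day 5 (1.38 to 4.86). Its fitted log2 fold change was 1.17 (SE 1.09, adjusted p = 0.920 by edgeR), and 0.29 in distinct inserts, which numbered 4, 6 and 5.

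The arms of miR-31 were therefore in different balance in the 2 experiments. The 3p arm made up 14.7% of miR-31 reads at 0 h (12.4% to 17.3%), 52.1% at 12 h, 24.5% at 16 h, 35.97% at 20 h and 30.8% at 24 h. At 12 h, 97 of its 98 reads were copies of 1 insert, and at 24 h its 49 reads fell on 2 inserts. On contact days 0, 3 and 5 that arm made up 2.45%, 3.24% and 9.64%. Every serum library lay above every contact library. The same held for 14 of 57 hairpins with at least 100 reads of each arm (24.6%), and the reverse for 2. The log2 ratio of 3p to 5p of miR-31 was higher in the serum libraries by 3.25, against a median of 1.27 over those 57 hairpins. The serum libraries are also the ones dominated by the 18-nt insert, and the part of that difference was not tested.

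**Figure D4:**
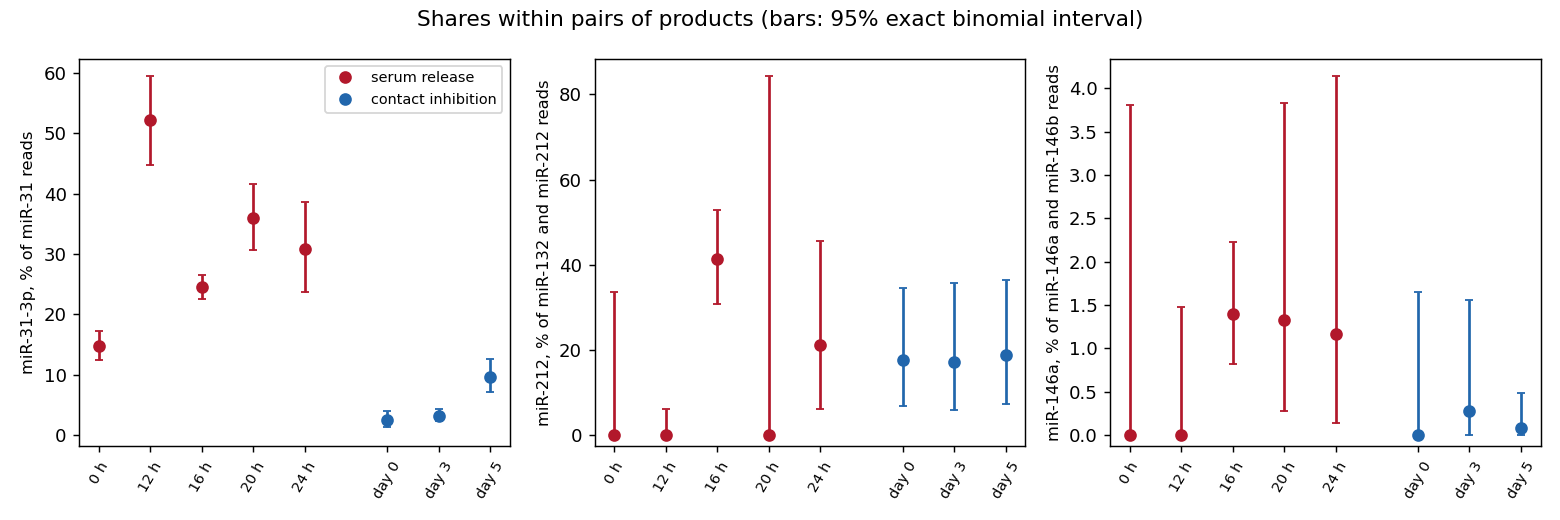
Share of miR-31-3p in miR-31 reads, of miR-212 in miR-132 and miR-212 reads, and of miR-146a in miR-146a and miR-146b reads (percent, with 95% exact binomial intervals) by hours after serum (red) and contact day (blue). The miR-31-3p share is 14.7% to 52.1% in the serum libraries and at most 9.64% in the contact libraries.

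Of the 7 tested arms, edgeR called 1 after serum, against 0.345% of all tested miRNAs in that direction. It called none in contact arrest or in the difference of the arrest effects. After serum 6 of the 7 fitted log2 fold changes were above 0, with miR-31-5p below and miR-31-3p near 0 (0.04, or -0.09 with library totals), beside a median of 0.20 over all tested. miR-146a-5p and miR-212-3p had 0 reads at 0 h, so their direction is no support. The SD of log2(TMM-scaled CPM + 1) over the 8 libraries was 1.96 for miR-155-5p (rank 122 of 290), 1.17 for miR-31-5p and 1.01 for miR-146b-5p, against a median of 1.60 over all tested.

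**Figure D5:**
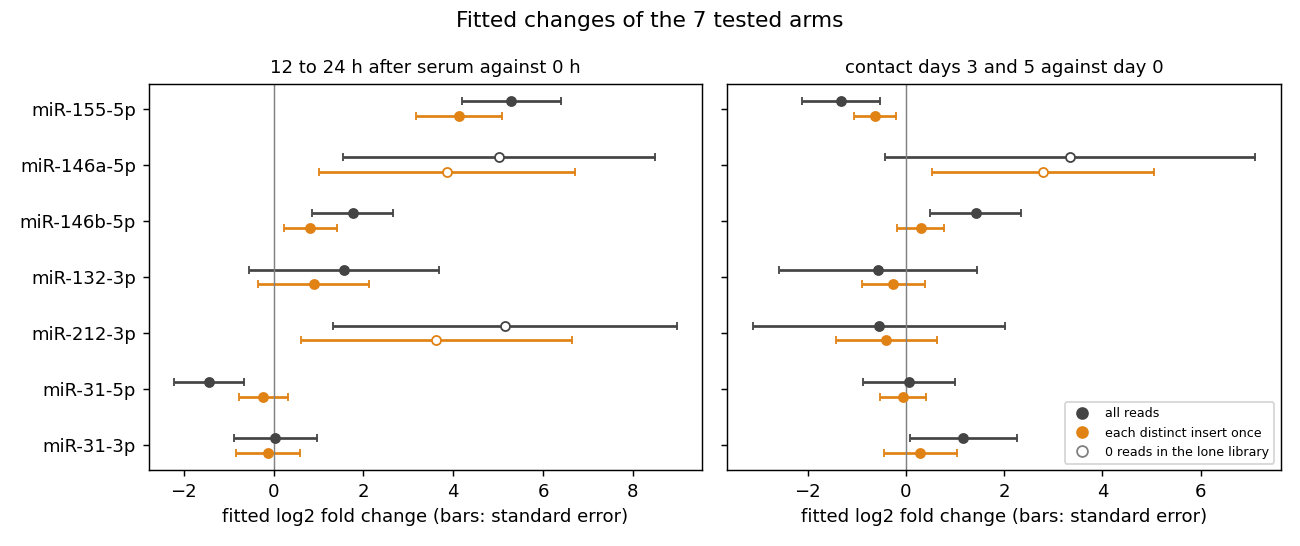
Fitted log2 fold changes with standard errors for the 7 tested arms, after serum against 0 h (left) and on contact days 3 and 5 against day 0 (right), from all reads (grey) and from each distinct insert counted once (orange). After serum miR-155-5p stands at 5.30 and 4.13, and open circles mark arms with 0 reads in the lone library.

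The miRNAs whose levels followed each member most closely over the 8 libraries, by Pearson r of log2(TMM-scaled CPM + 1), are given as a description. For miR-155-5p they were miR-93-3p (0.95), miR-15b-3p (0.93) and let-7e-3p (0.90), each with 0 reads at 0 h. For miR-146b-5p they were let-7i-5p (0.82), miR-411-5p (0.78) and miR-129-5p (0.76). For miR-31-5p they were miR-34a-5p (0.88), miR-181b-5p (0.88) and miR-25-3p (0.88), and for miR-31-3p miR-99a-5p (0.91), miR-22-3p (0.90) and miR-224-5p (0.87). For miR-132-3p the closest was miR-574-5p (0.70), followed by miR-702-5p (0.63) and miR-195a-5p (0.56).

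Other miRNAs linked to growth factors, AP-1, NF-kB or SRF did not pass in any comparison. Of 14 listed, 12 were tested, and 6 of them had a fitted log2 fold change above 0 after serum, with a median of 0.05. The others, miR-143-3p and miR-145a-5p, had no entry in the mature miRNA reference. miR-21a-5p, a known AP-1 target, was at -0.48 after serum (SE 0.549, adjusted p = 0.812 by edgeR). miR-21a-3p had 0 reads at 0 h and 12 h, and 194, 17 and 31 reads at 16, 20 and 24 h. None of the 6 members of the Myc-linked miR-17/92 cluster passed, and their median after serum was -0.11. Of these, 3 were above 0, and they ran from -1.43 for miR-19a-3p to 1.85 for miR-92a-3p. By the ratio rule miR-92a-3p was among the 11 miRNAs counted higher.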

How the data were processed

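The deposited files give, per the file contents, each distinct 36-nt read of a library with its count, adapter still attached. The authors' read caller and filters: not given in the sources used here; per the labels, library preparation followed an earlier publication. From these counts the adapter was removed (at least 6 bases, 1 mismatch per 8), and inserts of 16 to 30 nt were kept. A read was counted for the RefSeq mature miRNA (GRCm38.p6, 1581 names) that matched its first 20 bases. Inserts under 20 nt were therefore not counted for any miRNA. Tools were Python 3.11.15 and R 4.3.3.

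The fit used edgeR 4.0.16 (robust quasi-likelihood, TMM) on miRNAs with at least 10 CPM in at least 3 libraries, with 4 terms (starved, released, contact day 0, contact days 3 and 5) and 4 residual degrees of freedom. The SE is the absolute log2 fold change over the square root of F. The script was tested on simulated data. DESeq2 1.42.0 and the other alternatives are in the closing section. Named miRNAs are all arms of the 6 hairpins and, for arms with at least 20 reads in at least 5 libraries, the 3 miRNAs of highest Pearson r. The members and lists were chosen with earlier results of these data known.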

Additional observations from a re-analysis of the deposited data

Results flagged for a closer look

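miR-146b-5p stood on opposite sides of the cycling libraries in the arrests of the 2 experiments. It was lower at 0 h (319.5 TMM-scaled CPM) than in all 4 libraries after serum (868.5 to 1255), and higher on contact days 3 and 5 (1082 and 4279) than on day 0 (1002). The difference of the arrest effects was -3.18 on the log2 scale (SE 1.29), with an unadjusted p of 0.0228 and an adjusted p of 0.791 by edgeR's quasi-likelihood test. The median over all tested miRNAs was -1.02. The difference was -1.85 without contact day 5, where the contact fold change was 0.10 on the log2 scale, and -1.11 in distinct inserts. The opposite direction on day 3 is within counting error, and it turns with DESeq2 size factors (a ratio of 0.866).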

How the results depend on the processing

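The serum comparison called 2 miRNAs, and 6 with no filter or 8 with DESeq2; the contact comparison called 0, and 7 with DESeq2. Leaving out 1 library gave 2 to 3 calls after serum and 0 to 9 in contact, where the 9 came without day 3. The difference of the arrest effects called 1 when whole inserts had to match (miR-155-5p). The ratio rule counted 21, 7 at a minimum of 500 reads, and 22 to 40 without 1 library, where the 40 came without 16 h. The miR-212 share was 14.0% with whole inserts and 11.5% to 26.6% without 1 library (lowest without 16 h, highest without 12 h); the miR-146a share was 0.284% to 0.910%. Arms near 0 changed sign: miR-31-5p in contact was -0.29 with DESeq2 size factors and with DESeq2, -0.11 with whole inserts, -0.059 in distinct inserts, and -0.83 to 0.57 without 1 library; miR-31-3p after serum was -0.088 with library totals, -0.012 with the first 18 bases or whole inserts, -0.12 in distinct inserts, and -0.11 to 0.14 without 1 library. The cause was not tested. Counting each distinct insert once was chosen after seeing the data. The 0 h and day 0 libraries could not be left out, being the only ones of their kind. No paired analysis was possible because the labels give no replicate numbers. Copies of single inserts and 0 counts at 0 h limit miR-146a, miR-132 and miR-212, and copies limit miR-31-3p at 12 h.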

Other observations

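Among the markers of other cell types, muscle miR-206-3p had 19 to 214 reads in every library, the neural markers miR-9-5p and miR-128-3p together had 0 reads at 12 h and 86 to 870 elsewhere, and the liver marker miR-122-5p had 0 reads throughout. Of the 4 pluripotent markers, miR-294-3p had 85 reads at 12 h and at most 13 in any other library. miR-295-3p had 38 reads at 0 h, 0 at 12 h and at most 8 elsewhere, and miR-291a-3p and miR-302a-3p had 0 reads throughout. Since some listed markers had no entry in the mature miRNA reference, 0 reads throughout need not mean absence. In contact arrest, miR-21a-5p had a fitted log2 fold change of 1.97 (SE 0.686, adjusted p = 0.272 by edgeR), with 39540 TMM-scaled CPM on day 0, 88900 on day 3 and 221500 on day 5.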
